A study of Rattus norvegicus with 18 samples.

Results

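Of the 32883 genes counted in 18 rats in visceral white adipose tissue (vWAT), 2 genes of chromosome 1 are described here, ENSRNOG00000042084 and ENSRNOG00000019050. They were chosen by identifier because their reads were near absent in the normotensive Wistar-Kyoto (WKY) rats and present in both groups of spontaneously hypertensive rats (SHRs), so their difference between the strains is a description and was not tested. The WKY group, labelled WYKW, held 6 normotensive controls without TMAO. The SHR-Water group, labelled SHRW, held 6 SHRs on tap water. The SHR-TMAO group, labelled SHRWT, held 6 SHRs whose drinking water carried 1 g/L trimethylamine N-oxide (TMAO), a compound that the host makes from a product of gut bacteria. This group thus differs from WKY in strain and in treatment. The rats were male, per the study's methods. The SHRs began water or TMAO at 7 to 8 weeks of age and were sampled after 22 weeks, while the methods do not give the age of the WKY rats. Both hypertensive groups have the SHR strain in common and all controls are WKY, so a difference from WKY cannot be told apart from any other difference between the strains, and each library is bulk tissue, in which fewer cells of a type and less RNA per cell cannot be told apart.

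The SHR strain was bred from Wistar-Kyoto stock by selection for high blood pressure, and both strains are inbred, so that rats of one strain are nearly alike in their genomes and the strains differ at many fixed places. Visceral white fat lies in the abdominal cavity, stores triglyceride and releases hormones, and holds vessels, stromal cells and immune cells beside its adipocytes. A gene that is read in one inbred strain and hardly at all in another stands apart from the usual graded differences in expression, since its level in the low strain lies at the limit of detection. The table gives Ensembl identifiers without names, and the reference table matched 0 of them, so the function of either gene is not described and the labelled tissue was not checked against marker genes.

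The libraries held between 10774133 and 18874161 counts on genes. The mitochondrial share of these counts averaged 21.4% ± 5.43 for SHR-Water, 16.8% ± 3.52 for SHR-TMAO and 14.9% ± 5.12 for WKY (SD, n = 6 each), and its part in the results was not tested beyond leaving those genes out, which changed no call on either gene. The library of SHR-TMAO replicate 3 stood apart, with 142 genes above 2 CPM (counts scaled to a common library size) whose level was at least 8-fold that of all remaining rats. Elsewhere no library had more than 2 such genes. In both chromosome 1 genes this rat lay within the range of its group. No pair of replicates agreed within sampling noise, and the closest pair gave a chi-square of 14.3 for each degree of freedom.

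Both genes lie on the plus strand of chromosome 1 of the rat build Rnor_6.0, 63.5 Mb apart, and differ in structure. ENSRNOG00000042084 (1, 189289957 to 189395276) spans 105 kb, of which 4594 bases, or 4.36%, are exonic. Its annotated exons merge into 29 blocks, the longest of 762 bases. A gap of 30.8 kb without exons (189329008 to 189359819) divides them into 14 blocks on the upstream side and 15 on the downstream side. Reads were summed over the whole gene, so these data do not show which blocks they came from. ENSRNOG00000019050 (1, 252944103 to 252946170) is a single exon of 2068 bases. Of all genes listed, 29.6% have 1 exon record.

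Inside the exon gap of ENSRNOG00000042084 the annotation places 2 genes on the minus strand. The first (189345450 to 189345651) had 0 counts in all 18 libraries. The second (189347736 to 189359730) had 2 counts over the 6 WKY libraries, 15 over SHR-Water and 15 over SHR-TMAO. Pooled over the SHRs it was 6.86 times the WKY level, with an exact 95% interval from 1.74 to 59.2 that covers counting error only. By rat, it ranged from 0 to 0.122 CPM in WKY, 0 to 0.226 in SHR-Water and 0 to 0.347 in SHR-TMAO. The groups thus overlapped, and this second gene was too low for the test across genes. Counting used the strand of the reads, which keeps these genes apart from ENSRNOG00000042084 as far as the libraries preserve strand.

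**Figure D1:**
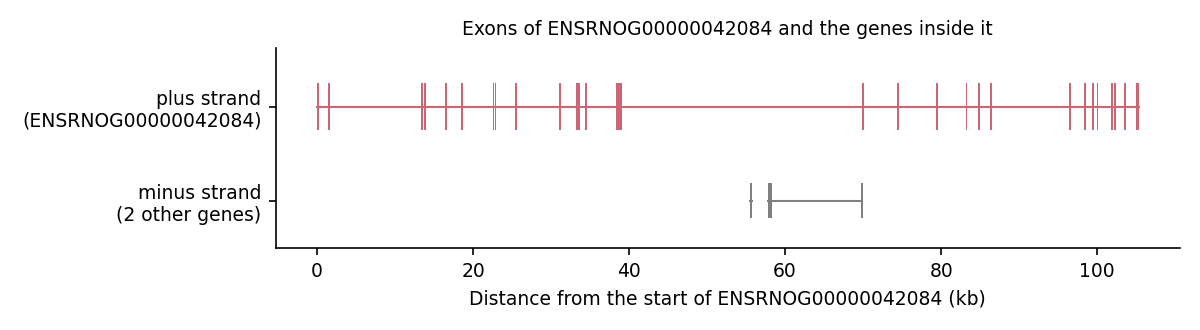
Annotated exons (boxes) of ENSRNOG00000042084 on the plus strand and of 2 genes on the minus strand, against the distance from its start in kb. The 29 merged exon blocks fall into sets of 14 and 15 on either side of a 30.8 kb gap, and both minus-strand genes lie in that gap.

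ENSRNOG00000042084 was read 3 times in all in the WKY group and 2032 times in the SHRs. WKY replicates 1, 4 and 6 had 1 count each, and replicates 2, 3 and 5 had 0. In a WKY library, 0 counts allow a level of up to 0.145 to 0.274 CPM (3 counts of the TMM-normalized total). SHR-Water replicates 1 to 6 had 99, 178, 207, 144, 108 and 235 counts. SHR-TMAO replicates 1 to 6 had 93, 131, 129, 148, 182 and 378 counts. Every SHR library was thus far above every WKY library, while the SHR groups overlapped.

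On the scale of CPM normalized by TMM, the level of ENSRNOG00000042084 was 0.0364 ± 0.0410 in WKY rats, 9.71 ± 2.92 in SHR-Water rats and 10.5 ± 4.92 in SHR-TMAO rats (SD, n = 6 each). The highest WKY rat had 0.0901 CPM, the lowest SHR-Water rat 6.79 and the lowest SHR-TMAO rat 6.41. Pooled over libraries, SHR-Water was 295 times WKY (exact 95% interval 101 to 1434) and SHR-TMAO was 324 times WKY (111 to 1575). These wide intervals rest on the 3 WKY counts and cover counting error only. The fitted log2 fold change, which edgeR shrinks at low counts, was 7.85 for SHR-Water and 7.97 for SHR-TMAO. Unshrunk, it was 8.16 (standard error 0.49) for SHR-Water and 8.28 (standard error 0.54) for SHR-TMAO. Its size thus depends on how such low counts are treated.

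ENSRNOG00000019050 kept a trace of reads in WKY, 13 in all. WKY replicates 1 to 6 had 2, 1, 0, 2, 4 and 4 counts. SHR-Water replicates 1 to 6 had 179, 194, 388, 215, 231 and 194 counts. SHR-TMAO replicates 1 to 6 had 148, 127, 271, 447, 401 and 388 counts. Reads were therefore found in 5 of 6 WKY rats, but the WKY and SHR ranges lay far apart.

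In CPM, ENSRNOG00000019050 was at 0.143 ± 0.104 in WKY rats, 14.1 ± 4.23 in SHR-Water rats and 17.6 ± 7.35 in SHR-TMAO rats (SD, n = 6 each). The highest WKY rat had 0.256 CPM, the lowest SHR-Water rat 10.95 and the lowest SHR-TMAO rat 9.12. Pooled over libraries, SHR-Water was 98.3 times WKY (exact 95% interval 57.3 to 185) and SHR-TMAO was 126 times WKY (73.3 to 236). The fitted log2 fold change was 6.52 for SHR-Water and 6.85 for SHR-TMAO. Unshrunk, it was 6.59 (standard error 0.41) for SHR-Water and 6.93 (standard error 0.46) for SHR-TMAO. Both contrasts use the same WKY rats and are not independent of each other.

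**Figure D2:**
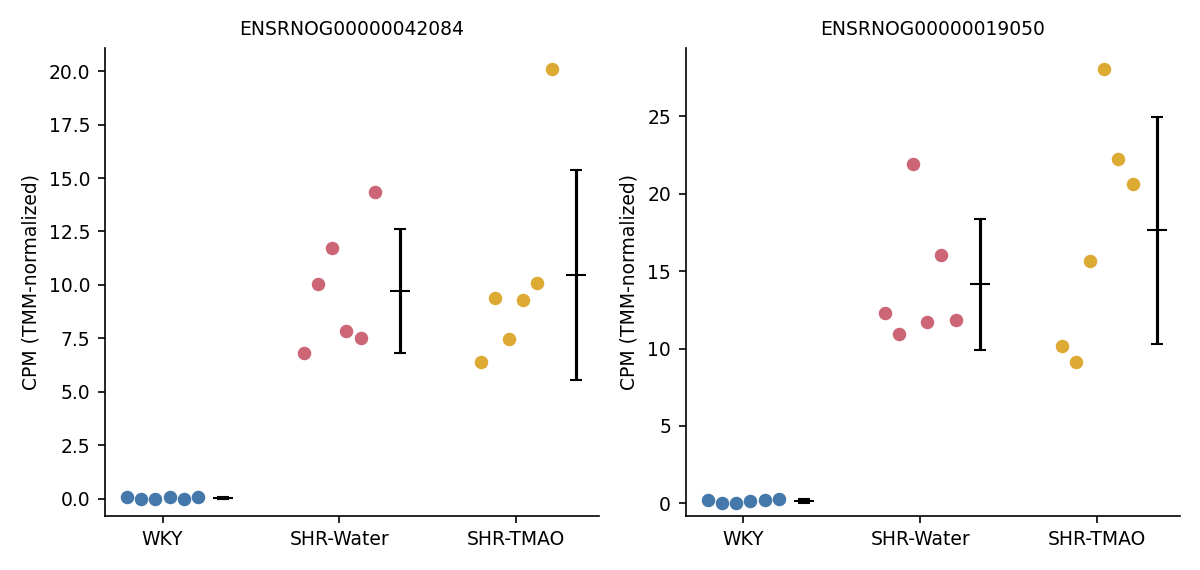
Level of the 2 genes (CPM, TMM-normalized, linear axis) in each rat, with the mean and SD of each group beside the points (n = 6 per group). The WKY rats lie at or below 0.256 CPM, the SHRs between 6.41 and 28.0 CPM, and the SHR groups overlap.

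Among the genes tested across the whole table with edgeR, 3.42% were called between SHR-Water and WKY (1.29% higher in SHR-Water) and 3.62% between SHR-TMAO and WKY (1.45% higher in SHR-TMAO, 2.17% lower). A call was a Benjamini-Hochberg adjusted p under 0.05 with a log2 fold change of at least 1. The values of SHR-Water and WKY did not overlap in 4.13% of genes, and those of SHR-TMAO and WKY in 4.08%. By fitted log2 fold change, ENSRNOG00000042084 stood 2nd of 13017 genes in SHR-Water and ENSRNOG00000019050 stood 4th. In SHR-TMAO they stood 3rd and 6th of 12833. These shares and ranks come from the contrast that chose the genes, and nothing is read from them. With limits chosen after the data were seen, 9 genes of the table averaged under 0.5 CPM in WKY and at least 5 CPM in both SHR groups. Of these, 2 were on chromosome 1, the genes described here, and 3 were on chromosome 11. Chromosome 1 holds 4139 of the 32883 genes of the table. Clustering by chromosome was not tested, and nothing is read from these places. The opposite pattern, at least 5 CPM in WKY and under 0.5 CPM in both SHR groups, was found in 6 genes, 1 of them on chromosome 1.

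Where they were present, both genes were of middling abundance by CPM, which does not correct for gene length. The SHR-Water mean of ENSRNOG00000042084 was above that of 41.0% of the 13325 genes kept over all libraries, and that of ENSRNOG00000019050 above 49.5%. Per kilobase of exon the single-exon gene was the higher one. In SHR-Water it had 6.84 ± 2.05 FPKM, and ENSRNOG00000042084 had 2.11 ± 0.635 FPKM (SD, n = 6). In SHR-TMAO the levels were 8.53 ± 3.55 and 2.28 ± 1.07 FPKM (SD, n = 6). ENSRNOG00000019050 was higher in FPKM in 12 of 12 SHRs, by 1.83-fold to 6.71-fold with a median of 3.78-fold. The FPKM of ENSRNOG00000042084 divides by all 4594 exonic bases of its annotation. Which of its exon blocks were read is not known, and a shorter length in use would raise its FPKM.

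The effect of TMAO was compared within the SHR strain. This contrast did not choose the genes, but the choice asked for reads in both SHR groups. A gene near absent in either SHR group could therefore not appear here. Neither gene differed between SHR-TMAO and SHR-Water by more than the spread between rats. For ENSRNOG00000042084 the log2 fold change was 0.14 (standard error 0.27, 95% interval -0.45 to 0.73), with an adjusted p of 0.772 in edgeR's quasi-likelihood test and an exact two-sided permutation p of 0.851. The interval runs from 0.734-fold to 1.66-fold. The SHR-TMAO mean was raised by replicate 6, at 20.1 CPM against 6.41 to 10.1 CPM in the other TMAO rats. This was the single TMAO rat above the highest SHR-Water rat, at 14.4 CPM. Without it, the log2 fold change turned to -0.15 (edgeR adjusted p = 0.695).

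For ENSRNOG00000019050 the log2 fold change was 0.36 (standard error 0.27, 95% interval -0.23 to 0.94), with an adjusted p of 0.424 in edgeR's quasi-likelihood test and an exact two-sided permutation p of 0.424. The interval runs from 0.854-fold to 1.92-fold, which leaves room for changes below that size in either direction. In SHR-TMAO 4 of 6 rats lay above the SHR-Water median of 12.1 CPM, and replicates 4 and 5, at 28.0 and 22.2 CPM, lay above every SHR-Water rat. Replicates 1 and 2, at 10.2 and 9.12 CPM, lay below every SHR-Water rat. The coefficient of variation was 41.7% in SHR-TMAO and 29.9% in SHR-Water, the latter falling to 16.0% without SHR-Water replicate 3. For ENSRNOG00000042084 it was 47.0% in SHR-TMAO and 30.02% in SHR-Water, but without SHR-TMAO replicate 6 the first value was 18.02%, below that of SHR-Water. The spread was not tested between the groups.

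Across the table, edgeR called 0% of 12852 genes between SHR-TMAO and SHR-Water, with 25% at an unadjusted p under 0.05, and the groups did not overlap in 1.24% of genes. For both chromosome 1 genes they overlapped. DESeq2 called 405 genes and limma voom 1087, and neither chromosome 1 gene was among the calls of either tool. The order of the groups by mean was the same for both genes, with SHR-TMAO above SHR-Water and WKY lowest, but the upper pair of this order did not differ beyond the spread.

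**Figure D3:**
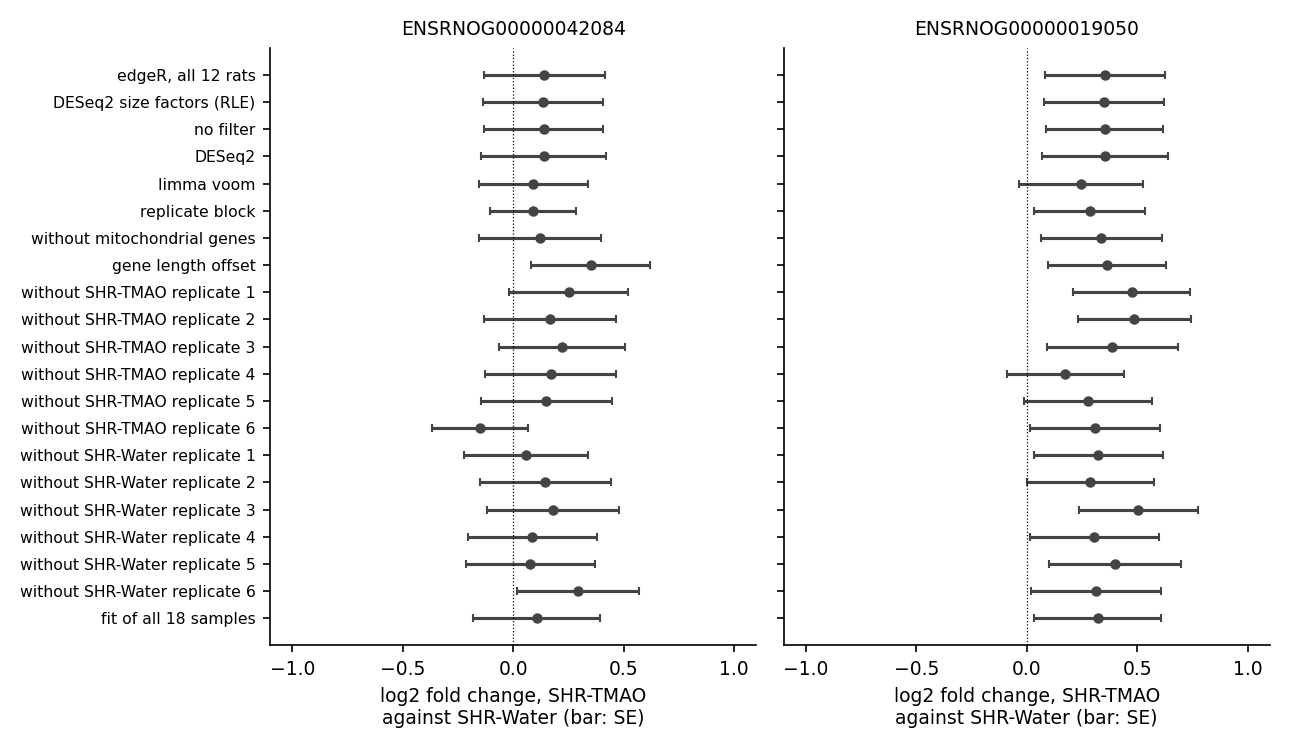
Log2 fold change between SHR-TMAO and SHR-Water (points, with the standard error as bars) for both genes under each way of fitting the counts, from edgeR on all 12 rats at the top to the fit of all 18 samples at the bottom. The values of ENSRNOG00000019050 stay between 0.18 and 0.51, and those of ENSRNOG00000042084 between -0.15 and 0.35, below 0 only without SHR-TMAO replicate 6.

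Among the SHRs the 2 genes did not vary together beyond what permutation gave. Taken over 12 SHRs on the log2(CPM + 1) scale, Pearson's r stood at 0.344 with a permutation p of 0.279 (0.644 after adjustment for the 3 relations computed). Spearman's rho stood at 0.315 with a permutation p of 0.320. Leaving out the 2 rats farthest from the median of ENSRNOG00000042084 gave an r of 0.453. For the 6 SHR-Water rats alone, Pearson's r came to 0.144 with an exact permutation p of 0.767 (adjusted 0.767), and rho to -0.0857 with an exact permutation p of 0.919. The 6 SHR-TMAO rats gave an r of 0.428 with an exact permutation p of 0.429 (adjusted 0.644) and a rho of 0.314 with an exact permutation p of 0.564. Leaving out the farthest 2 of the 6 rats moved r to -0.498 in the first group and 0.186 in the second. So few rats remain that these values cannot show whether a relation was stable within a group. SHR-TMAO replicate 6 was the highest rat of its group in ENSRNOG00000042084 and the third highest in ENSRNOG00000019050.

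The genes whose levels followed each of the 2 most closely were sought among 13324 others, first over the 12 SHRs as deviations from the group means. These correlations are descriptions over libraries that also share depth and composition, and no p-value was computed. For ENSRNOG00000019050 the highest r, 0.956, belonged to a gene on the minus strand of chromosome 6 (45655954 to 45669148). It was followed by a plus-strand gene of chromosome 11 (38035450 to 38059950) with 0.915 and a minus-strand gene of chromosome 13 (99091763 to 99101208) with 0.909. In all, 26 genes had an r of at least 0.8.

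Unlike ENSRNOG00000019050, these 3 genes were present in every WKY rat, and none was called between either SHR group and WKY. The chromosome 6 gene had 4.84 ± 1.88 CPM in WKY rats, 4.69 ± 1.18 in SHR-Water rats and 5.77 ± 2.72 in SHR-TMAO rats (SD, n = 6 each). Its log2 fold change between SHR-Water and WKY was -0.06 (edgeR adjusted p = 0.898). The chromosome 11 gene ranged from 14.8 to 51.2 CPM among the WKY rats, from 13.7 to 39.4 in SHR-Water and from 13.4 to 57.0 in SHR-TMAO. The SD was 15.3 CPM in WKY, between those of SHR-Water (10.8) and SHR-TMAO (18.3), while ENSRNOG00000019050 stayed at or below 0.256 CPM in WKY. The chromosome 13 gene had 113 ± 7.91 CPM in WKY rats, 91.4 ± 5.30 in SHR-Water rats and 114 ± 15.6 in SHR-TMAO rats (SD, n = 6 each).

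**Figure D4:**
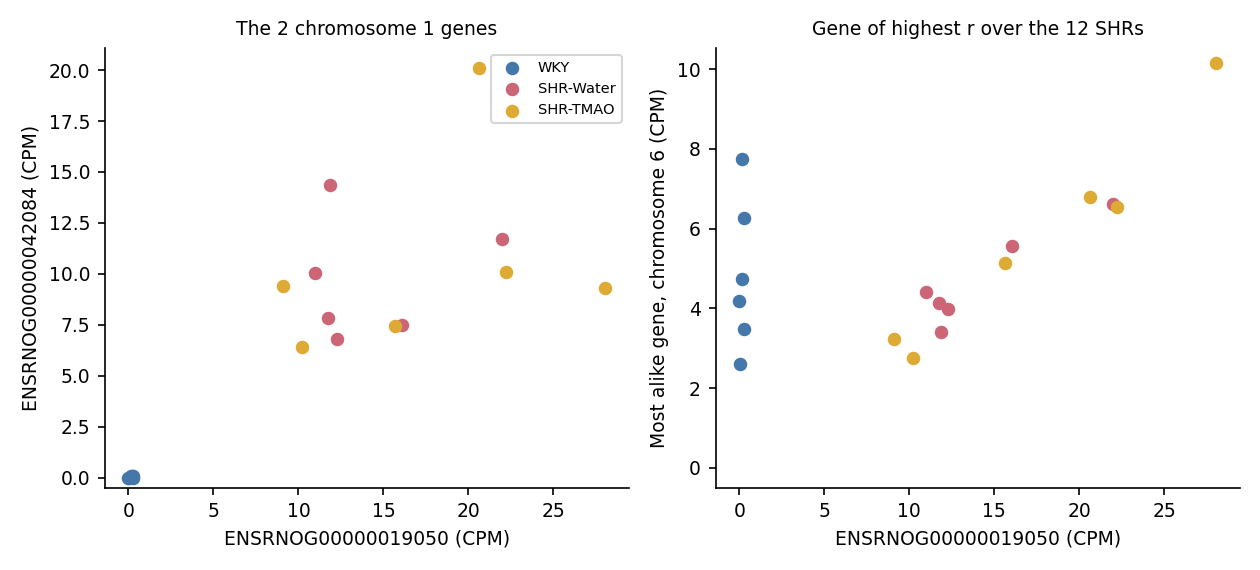
Left, CPM of ENSRNOG00000042084 against CPM of ENSRNOG00000019050 in each rat. Right, CPM of the chromosome 6 gene of highest r over the 12 SHRs against CPM of ENSRNOG00000019050. In the right panel the SHRs lie along a rising line (r = 0.956 on the log2 scale, after group means were removed), and the WKY rats spread over the same height with ENSRNOG00000019050 near 0.

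For ENSRNOG00000042084 the highest r over the 12 SHRs was 0.872, with a minus-strand gene of chromosome 9 (27562959 to 27761733) that averaged 1.34 CPM in WKY rats, 1.94 in SHR-Water rats and 1.63 in SHR-TMAO rats. It was followed by a plus-strand gene of chromosome 18 (40883224 to 40953864) with 0.870, at under 1 CPM on average in each group, and a minus-strand gene of chromosome 15 (3033495 to 3435888) with 0.865. The chromosome 15 gene had 64.3 ± 5.93 CPM in WKY rats, 56.6 ± 4.79 in SHR-Water rats and 59.5 ± 12.3 in SHR-TMAO rats (SD, n = 6 each). None of the 3 was called between SHR-Water and WKY. By this measure the 2 chromosome 1 genes stood at places 2053 and 2188 of each other's lists.

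Over all 18 libraries, where the group difference is kept, the genes most alike were others with little expression in WKY. For both chromosome 1 genes they included a gene of chromosome 11 (32440237 to 32447259), with r of 0.977 and 0.979, and another of chromosome 11 (33909439 to 33917674), with r of 0.973 and 0.980. The first averaged 0.452 CPM in WKY rats, 8.87 in SHR-Water rats and 8.995 in SHR-TMAO rats. The third gene was on chromosome 10 (82232107 to 82252963) for ENSRNOG00000042084, with r of 0.979, and again on chromosome 11 (33781870 to 33801999) for ENSRNOG00000019050, with r of 0.977. On this scale the pair stood 4th and 5th on each other's list, a place that follows from the choice of both genes for the same group difference, as do these high values of r.

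None of the genes around ENSRNOG00000042084 that could be tested was called higher in the SHRs. The untested minus-strand gene in its exon gap had 2 counts in WKY and 15 in each SHR group. Pooled over the SHRs it was higher, with an exact 95% interval from 1.74 to 59.2 times WKY that covers counting error only. The rats of the groups overlapped, and the difference was not tested between rats. Within 300 kb on either side lay 16 other genes, of which 4 had 0 counts in all libraries and 4 others had fewer than 50. The remaining 8 were tested, and 0 were called higher in SHR-Water or SHR-TMAO than in WKY, where 1.29% and 1.45% of all genes were. At such shares 8 genes would most often hold no call, so nothing is read from this count. Their median log2 fold change was 0.16 for SHR-Water and 0.25 for SHR-TMAO, against -0.0041 and -0.0212 over all genes tested. The nearest tested gene upstream, on the same strand and ending 17.8 kb before it (189233141 to 189272172), had 12.02 ± 2.48 CPM in WKY rats, 9.17 ± 3.05 in SHR-Water rats and 10.2 ± 1.55 in SHR-TMAO rats (SD, n = 6 each). It was not called in SHR-Water (log2 fold change -0.41, edgeR adjusted p = 0.248) or SHR-TMAO (-0.25, edgeR adjusted p = 0.392), and over the 12 SHRs its r with ENSRNOG00000042084 was 0.702. The nearest downstream, 62.3 kb away on the minus strand (189457583 to 189460844), had 38.2 ± 4.85 CPM in WKY rats, 48.9 ± 7.94 in SHR-Water rats and 45.8 ± 6.05 in SHR-TMAO rats, and was not called either (edgeR adjusted p = 0.143 and 0.218).

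One gene of this window was called, in the other direction. A plus-strand gene 119 kb downstream (189514553 to 189541224) had from 1.92 to 4.38 CPM in WKY, with a median of 2.35, and from 0.823 to 1.42 in SHR-Water, with a median of 1.15. The groups did not overlap, and the log2 fold change was -1.21 (standard error 0.27, edgeR adjusted p = 0.0153), where 2.13% of all genes were called lower. In SHR-TMAO it ranged from 0.689 to 2.66 CPM with a median of 1.33, and it was not called (log2 fold change -0.79, edgeR adjusted p = 0.161). Between SHR-TMAO and SHR-Water it did not differ beyond the spread (0.44, edgeR adjusted p = 0.385).

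Around ENSRNOG00000019050 the nearest gene downstream was also higher in the SHRs. Of 12 other genes within 300 kb, 7 were tested, 1 was called higher in SHR-Water and 2 in SHR-TMAO, where 1.29% and 1.45% of all genes were. By adjusted p alone, with no fold limit, 2 and 3 of the 7 passed, where 6.13% and 7.75% of all genes did. The gene that begins 30.5 kb downstream, on the minus strand (252976644 to 253000760), had from 0.631 to 3.65 CPM in WKY with a median of 1.82. In SHR-Water it had from 5.76 to 25.5 CPM with a median of 18.9, and in SHR-TMAO from 10.5 to 15.2 with a median of 12.2. Neither SHR group overlapped WKY. It rose by a log2 fold change of 3.26 in SHR-Water (standard error 0.41, edgeR adjusted p = 0.000329) and of 2.75 in SHR-TMAO (standard error 0.32, edgeR adjusted p = 0.000118). Unlike ENSRNOG00000019050 it was present in every WKY rat. The levels of the pair did not go together among the SHRs, with an r of -0.026.

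The second gene called was a minus-strand gene 173 kb downstream (253119112 to 253185533). It had from 1.66 to 5.23 CPM in WKY with a median of 3.29, from 3.91 to 7.17 in SHR-Water with a median of 6.15 and from 4.41 to 10.2 in SHR-TMAO with a median of 7.60, so that the groups overlapped. It rose by a log2 fold change of 1.22 in SHR-TMAO (standard error 0.27, edgeR adjusted p = 0.0131), while 0.80 in SHR-Water was not called (edgeR adjusted p = 0.0813). The difference between SHR-TMAO and SHR-Water did not pass either (0.44, edgeR adjusted p = 0.216).

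The remaining gene that passed by adjusted p lay 94.2 kb upstream on the minus strand (252816527 to 252849904) and was under the fold limit. It had from 31.6 to 43.3 CPM in WKY, with a median of 41.3, from 51.99 to 108 in SHR-Water, with a median of 74.8, and from 54.8 to 86.7 in SHR-TMAO, with a median of 61.1. Neither SHR group overlapped WKY, and its log2 fold change was 0.96 for SHR-Water (standard error 0.17, edgeR adjusted p = 0.0051) and 0.78 for SHR-TMAO (standard error 0.14, edgeR adjusted p = 0.00426). Among the 12 SHRs its r with ENSRNOG00000019050 was -0.411.

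The tested gene nearest on the upstream side, a minus-strand gene 21.6 kb away (252914684 to 252922486), was low, with 1.63 ± 1.25 CPM in WKY rats, 1.23 ± 0.464 in SHR-Water rats and 1.76 ± 0.696 in SHR-TMAO rats (SD, n = 6 each), and was not called. Over the 12 SHRs, the r of the 7 tested neighbours with ENSRNOG00000019050 had a median of 0.526, against -0.0020 over all 13324 genes. The highest, 0.867, was that of a plus-strand gene 32.7 kb upstream (252906234 to 252911382), which was named after its values were seen. This gene had 12.3 ± 6.69 CPM in WKY rats, 15.2 ± 3.44 in SHR-Water rats and 19.2 ± 7.20 in SHR-TMAO rats (SD, n = 6 each), and its log2 fold change against WKY came to 0.28 for SHR-Water (edgeR adjusted p = 0.585) and 0.63 for SHR-TMAO (edgeR adjusted p = 0.291). For the 8 tested neighbours of ENSRNOG00000042084 the median r was 0.183, against 0.0214 over all genes. Genes of one window are not independent of each other, and these medians are descriptions.

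**Figure D5:**
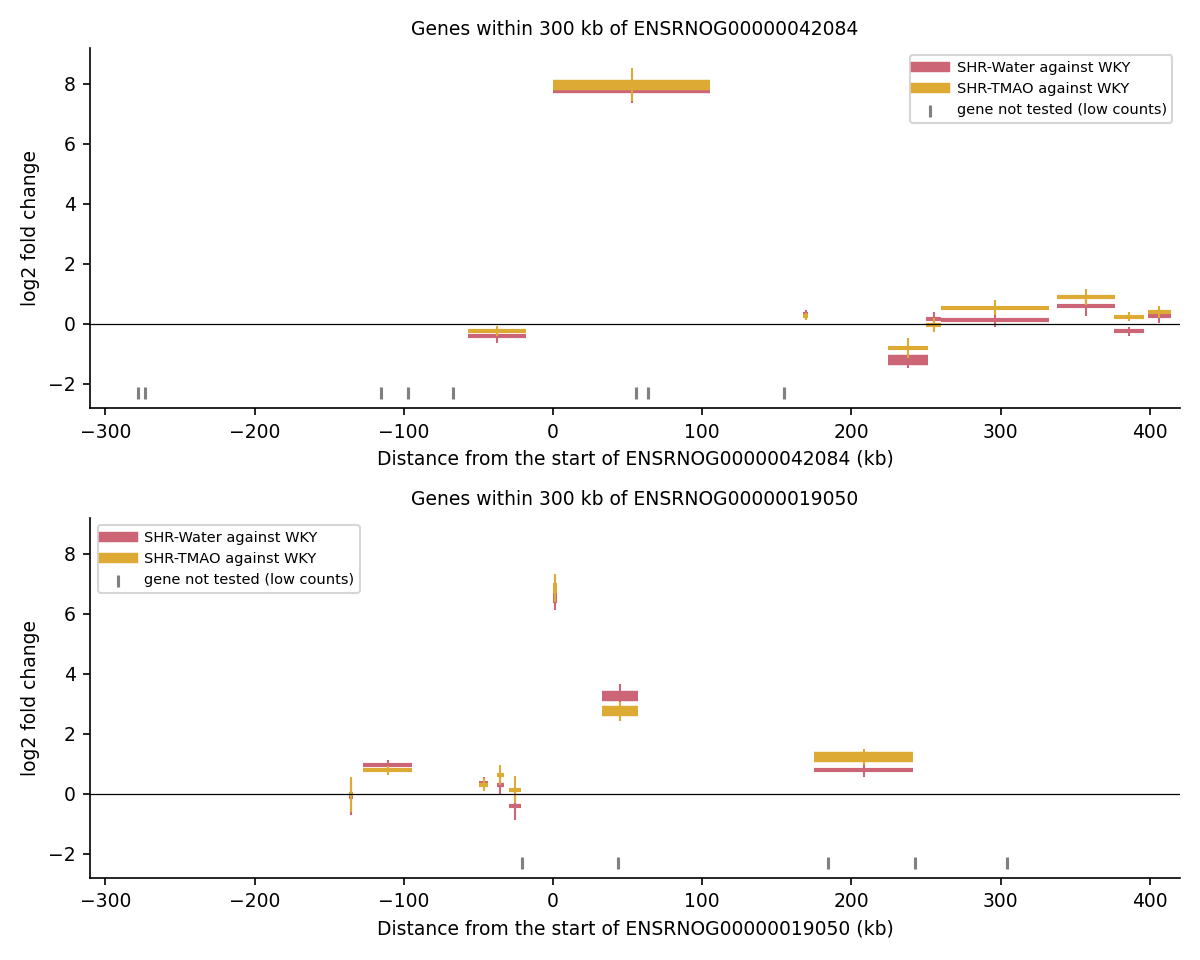
Log2 fold change of SHR-Water and SHR-TMAO against WKY for the tested genes within 300 kb of each gene, drawn along each gene's extent, against the distance from the start of the gene described (kb). Thick bars are called genes, vertical lines are standard errors and grey ticks are genes too low to test. ENSRNOG00000042084 stands alone near 8, whereas beside ENSRNOG00000019050 the next gene downstream lies at 3.26 and 2.75.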

How the data were processed

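RNA-seq libraries of vWAT from 18 rats (6 per group) were analysed. The authors trimmed reads with cutadapt 2.5, aligned them with HISAT2 2.1.0 and deposited whole-number counts per gene from featureCounts 1.6.3, with the strand setting 2 and the Ensembl release 96 annotation of Rnor_6.0, per the file headers and the submitters' processing notes. The counts were deposited without normalization or a filter. Exon length is the featureCounts length in bases.

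The test was edgeR's quasi-likelihood test (version 4.0.16, R 4.3.3), with TMM factors and the filterByExpr filter, on the 12 rats of each comparison, with Benjamini-Hochberg adjustment over all genes tested. The log2 fold changes of edgeR are shrunk at low counts unless called unshrunk, and their standard errors and intervals come from the unshrunk estimates. CPM and FPKM used TMM factors over all 18 libraries. DESeq2 1.42.0 and limma 3.58.1 were alternatives, with other normalization and filters, a replicate block, a gene length offset, omission of mitochondrial genes and omission of each rat. The spread without each rat was added after seeing the data. Exact permutation tests between groups used all 924 assignments of 12 rats, with a smallest p of 0.00216. Correlations within a group of 6 rats used every ordering of the rats, and those over the 12 SHRs used 100000 random permutations. All were two-sided. Python 3.11.15, numpy 2.4.6 and scipy 1.17.1 were used. Exact intervals are Clopper-Pearson. Intervals and floors cover counting error only. Depth, from 10774133 counts, sets the precision of the WKY values.

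The fit was tested on simulated data in which 200 genes changed by 2 on the log2 scale. In each comparison edgeR recovered from 192 to 197 of them, with 5 false calls. The simulation gave all genes the same spread and had no library that stood apart. It therefore does not cover the differences between tools and between omitted rats. Library preparation used SMART technology, and the methods do not say whether it kept the strand.

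The members and lists were chosen with earlier results of these data known. The genes named by rule are the 2 members and some of the genes within 300 kb. These neighbours overlap a member, are the nearest tested on each side or are called against WKY. For each member, the 3 genes of highest r over the 12 SHRs and over 18 libraries were also named by rule. Outside this rule, the genes 94.2 kb and 32.7 kb upstream of ENSRNOG00000019050 were named after their values were seen. Lists of gene families and cell markers by symbol, and sequences, were not used here, since the reference table, of another build, matched 0 identifiers.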

Additional observations from a re-analysis of the deposited data

Results flagged for a closer look

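In 15 groups of 6 rats (the 2 genes and 3 called neighbours in each group), 1 rat lay far from the others of its group against the group's range, where chance gives about 1 in 20. ENSRNOG00000042084 had 20.1 CPM in SHR-TMAO replicate 6 (378 counts), against 6.41 to 10.1 CPM in the other SHR-TMAO rats. Its gap to the nearest rat was 0.731 of the range, above Dixon's critical value for a group of this size. In ENSRNOG00000019050 the same rat had 20.6 CPM, within its group's range of 9.12 to 28.0 CPM.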

How the results depend on the processing

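For the 2 genes against WKY, a contrast that chose them, the 20 alternatives of each comparison kept the direction. Their log2 fold changes stayed between 7.19 and 8.18 (ENSRNOG00000042084) and 6.32 and 6.75 (ENSRNOG00000019050) in SHR-Water, and between 7.21 and 8.30 and between 6.62 and 7.11 in SHR-TMAO. Between SHR-TMAO and SHR-Water no alternative gave either gene an adjusted p under 0.05 (lowest 0.235). ENSRNOG00000042084 went from -0.15, without SHR-TMAO replicate 6, the only reversal, to 0.29 with a rat left out, and was 0.35 with the gene length offset. ENSRNOG00000019050 went from 0.18 to 0.51 with a rat left out. The correlation of the genes stayed between 0.216 and 0.468, with no p under 0.05. The called gene 119 kb downstream of ENSRNOG00000042084 stayed between -1.29 and -1.02 in SHR-Water (highest adjusted p 0.0495). The gene 30.5 kb downstream of ENSRNOG00000019050 had an adjusted p under 0.05 between SHR-TMAO and SHR-Water, below the fold limit, only with limma voom (-0.59, adjusted p = 0.0392) and without SHR-Water replicate 1 (-0.67, edgeR adjusted p = 0.0304), and the gene 173 kb downstream had an adjusted p under 0.05 in SHR-Water in 5 of 20 alternatives.

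The number of genes called changed more. Between SHR-Water and WKY the 445 genes (168 higher) became 865 with DESeq2, 1649 with limma voom (1051 higher) and 798 with no fold change limit. With a rat left out they ranged from 337 to 1278, with 725 without SHR-Water replicate 1 and 1278 without WKY replicate 2 (835 higher). Between SHR-TMAO and WKY the 464 genes became 802, 736 and 995, and ranged from 363 to 646 with a rat left out. Between SHR-TMAO and SHR-Water the 0 genes of edgeR (3212 at an unadjusted p under 0.05) became 405 with DESeq2, 1087 with limma voom and 1 in the fit of all 18 samples, and from 0 to 685 with a rat left out. Leaving out SHR-Water replicate 1 gave 685, SHR-TMAO replicate 1 gave 442 and SHR-TMAO replicate 2 gave 2. The cause was not tested.

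Replicate numbers were not taken to pair the rats, since the labels give no shared origin and not every same-numbered pair correlated over 0.1. Correlations of same-numbered rats ran from -0.330 to 0.569 between SHR-Water and WKY (5 of 6 over 0.1, against a median of 0.0024 for other numbers, with 1 of 6 SHR-Water rats closest to the WKY rat of its own number), from -0.241 to 0.308 between SHR-TMAO and WKY and from -0.409 to -0.0088 between the SHR groups. With the replicate block 591 (296 higher), 341 and 0 genes were called, and the 2 genes had log2 fold changes of 0.09 and 0.28 for TMAO.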
